A study of Mus musculus with 85 samples.

Results

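The Slc25 genes encode the mitochondrial carrier family, nuclear-encoded proteins that move metabolites, nucleotides and cofactors across the inner mitochondrial membrane. Members were taken by name from a table of expression values in mouse preimplantation embryos: every gene whose symbol is Slc25a followed by a number, except Slc25a11, Slc25a12, Slc25a13 and Slc25a20, which the rule left out. The pattern matched 47 of 37367 genes and 43 remained. Of these, 39 were above 1 CPM (a gene's counts scaled to its library's total) in at least 3 of the 85 libraries, as were 22520 of all genes. Slc25a2, Slc25a27, Slc25a34 and Slc25a54 did not pass, and neither Slc25a34 nor Slc25a54 was above 1 CPM in any library. The family name does not place every member in the inner membrane: the product of Slc25a17 is known from peroxisomes and that of Slc25a46 from the outer mitochondrial membrane.

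All embryos were wild type and of the strain B6C3F1/J, and their ages are given in hours after hCG, the hormone injection that triggers ovulation. The morulae labelled as no pyruvate treated with myc (4 libraries, 78 h) were cultured without pyruvate and with 20 nM KY-PYR-9, which the labels call a myc inhibitor. Embryos cultured without pyruvate were sampled as 2-cell embryos at 42 h (4 libraries), 48 h (5), 52 h (4) and 55 h (4), as morulae at 78 h (5) and as blastocysts at 114 h (5). Embryos cultured without lactate were sampled as morulae at 78 h (5) and blastocysts at 114 h (4). The standard medium, KSOM, held L-lactate at 5 mM and both pyruvate and glucose at 0.2 mM. In it, 2-cell embryos were sampled at 34 h (early, 3 libraries), 42 h (mid, 4), 48 h (late, 3) and 52 h (very late, 3). Embryos in standard medium followed as 4-cell embryos at 55 h (early, 4) and 62 h (late, 4) and as 8-cell embryos at 66 h (early, 3) and 74 h (late, 2). Morulae at 78 h (6), early 16-cell embryos at 80 h (5), early 32-cell embryos at 90 h (4) and blastocysts at 114 h (4) completed the 21 groups. How many embryos a library holds, and whether replicates came from separate cultures, is not stated in the labels, so each p-value measures the spread between libraries, which may be technical.

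Carriers of this family share a fold built from repeated membrane-spanning units and usually exchange one solute for another. Pyruvate itself enters mitochondria through a different carrier, made of Mpc1 and Mpc2, while Slc25 members pass on what mitochondria make from it: citrate leaves through Slc25a1, and ATP leaves in exchange for ADP through Slc25a4, Slc25a5 and Slc25a31. Preimplantation embryos are known for a change of fuel: early cleavage depends on pyruvate and lactate, and glucose use grows toward the blastocyst.

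In what follows the members are ordered by role: 8 carriers of ADP, ATP and phosphate, 6 carriers of carboxylates together with relatives of the uncoupling proteins, 11 carriers of amino acids and related compounds, 10 carriers of cofactors, nucleotides and iron, and 8 with no role given here. Promoter windows are shown for 4 members because Slc25a1 and Slc25a31 led the changes in morulae without pyruvate, while Slc25a33, Slc25a16 and Slc25a1 led those with the inhibitor. Each window is the RefSeq sequence (assembly GRCm38.p6) from 250 bases before to 50 bases after the gene's start, on the gene's own strand. CACGTG, the canonical E-box that MYC with MAX is known to bind, is in capitals where a search of both strands found it.
Slc25a1: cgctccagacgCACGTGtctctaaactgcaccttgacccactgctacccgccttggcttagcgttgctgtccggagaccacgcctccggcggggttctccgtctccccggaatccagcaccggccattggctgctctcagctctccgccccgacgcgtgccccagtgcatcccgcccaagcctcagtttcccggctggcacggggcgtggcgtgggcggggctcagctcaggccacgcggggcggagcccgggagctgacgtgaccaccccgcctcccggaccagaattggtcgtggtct
Slc25a31: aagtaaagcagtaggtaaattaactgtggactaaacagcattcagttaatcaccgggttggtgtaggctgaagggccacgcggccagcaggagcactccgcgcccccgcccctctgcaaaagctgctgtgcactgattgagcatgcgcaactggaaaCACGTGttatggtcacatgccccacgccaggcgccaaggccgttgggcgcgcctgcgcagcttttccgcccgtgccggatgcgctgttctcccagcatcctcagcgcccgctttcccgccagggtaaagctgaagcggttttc
Slc25a33: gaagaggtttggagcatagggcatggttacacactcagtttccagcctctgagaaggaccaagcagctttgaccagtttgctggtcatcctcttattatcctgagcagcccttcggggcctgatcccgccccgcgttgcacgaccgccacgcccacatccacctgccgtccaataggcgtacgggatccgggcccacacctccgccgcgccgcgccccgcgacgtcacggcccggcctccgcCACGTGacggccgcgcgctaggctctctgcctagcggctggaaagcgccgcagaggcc
Slc25a16: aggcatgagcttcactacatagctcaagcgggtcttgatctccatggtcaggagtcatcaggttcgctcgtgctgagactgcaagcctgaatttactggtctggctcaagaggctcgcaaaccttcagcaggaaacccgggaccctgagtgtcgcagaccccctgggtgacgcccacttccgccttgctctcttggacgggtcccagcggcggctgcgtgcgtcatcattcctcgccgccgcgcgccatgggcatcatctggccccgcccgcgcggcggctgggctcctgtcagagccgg
The windows lie at chr16:17928170-17928469, minus strand (Slc25a1), at chr3:40708621-40708920, plus strand (Slc25a31), at chr4:149774218-149774517, minus strand (Slc25a33) and at chr10:62920383-62920682, plus strand (Slc25a16). The Slc25a1, Slc25a31 and Slc25a33 windows each held the motif once, and these letters are not in the Slc25a16 window. RefSeq windows matched 32 of the 43 members. CACGTG stood in 7 of their 42 windows (16.7%), from the 6 genes Slc25a1, Slc25a14, Slc25a15, Slc25a31, Slc25a33 and Slc25a36, against 7.15% of the 32851 windows of all genes searched. The palindromic core of an NRF1 site and the core letters of an ETS site, CCGGAAGT, were in 0 of the 42 members' windows, against 0.971% and 3.89% of all windows. These 3 strings do not overlap one another, and a match describes letters in a window, not a bound site.

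The depth of a library, inferred from the smallest step between its low values, was 10.2 to 42.6 M counts (median 19.6 M), at which counting alone gives a value of 1 CPM a relative error of 31.3% in the shallowest and 15.3% in the deepest library. CPM is a share of each library, and the 100 most abundant genes took 48.5 to 52.5% of the counts in early 2-cell libraries and 23.7 to 26.7% in late 2-cell libraries. Every comparison was therefore also made after a median-ratio scaling and after a quantile scaling. A call is said to hold in both where it kept its direction and stayed significant in each. Shares of all genes called are given for CPM as deposited only. Counts of members under the other scalings, or held in both, are therefore not shown to differ from those of all genes. Standard morula libraries 1 and 2 stood apart from the other 4: the 100 most abundant genes took 34.8 and 30.2% of their counts and 24.2 to 25.6% of the others', and mitochondrially encoded transcripts 8.27 and 4.33% against 1.37 to 3.00%. Of the standard groups, 4 oocyte and maternal genes (Zp3, Gdf9, Bmp15, Oosp1) had the highest sum in early 2-cell libraries, at 7815 to 10010 CPM. That of 5 trophectoderm genes (Cdx2, Gata3, Krt8, Krt18, Tfap2c) was highest in blastocysts, at 12860 to 17590 CPM. Other lists were not highest in blastocysts. Inner cell mass markers (Nanog, Sox2, Pou5f1) summed to 476 to 514 CPM in early 32-cell embryos and 62.1 to 96.5 CPM in standard blastocysts. Primitive endoderm markers (Gata4, Gata6, Sox17) summed to 125 to 152 CPM at early 8-cell and 28.0 to 43.7 CPM in standard blastocysts. Of 7 cumulus and granulosa markers the sum was 17.1 to 23.5 CPM in early 2-cell libraries.

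In what follows, values are means ± SD over the libraries of a group, and log2 changes are of CPM + 1, given ± SE and with a p-value from limma adjusted over all genes tested. A gene rose or fell where that p was below 0.05.

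Per kb of transcript, the largest share of the carrier pool in standard medium passed to Slc25a3 at late 2-cell and back to Slc25a5 in early 32-cell embryos. Slc25a5, an ADP/ATP carrier, made up 43.0 ± 2.00% of the members' summed CPM per kb in early 2-cell embryos. Slc25a3, the phosphate carrier, held 27.2 ± 3.34% at late 2-cell, 40.8 ± 2.80% at early 4-cell and 47.3 ± 0.985% at early 8-cell. Slc25a5 led again in early 32-cell embryos (51.1 ± 5.80%) and in blastocysts (41.4 ± 7.45%). Slc25a3, Slc25a4 and Slc25a5 together made up 39.3 ± 2.66% at very late 2-cell, 67.3 ± 1.26% at early 8-cell and 86.8 ± 2.37% in blastocysts. The members' summed level, not divided by length, was 639 ± 60.2 CPM at early 2-cell, 1976 ± 139 CPM at late 2-cell, 2244 ± 41.6 CPM at early 8-cell and 5794 ± 1050 CPM in blastocysts. Blastocyst libraries lay between 4256 and 6583 CPM, above every earlier standard group. In bulk libraries such a difference cannot be told apart from a change in how many cells of each type a library holds.

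**Figure D1:**
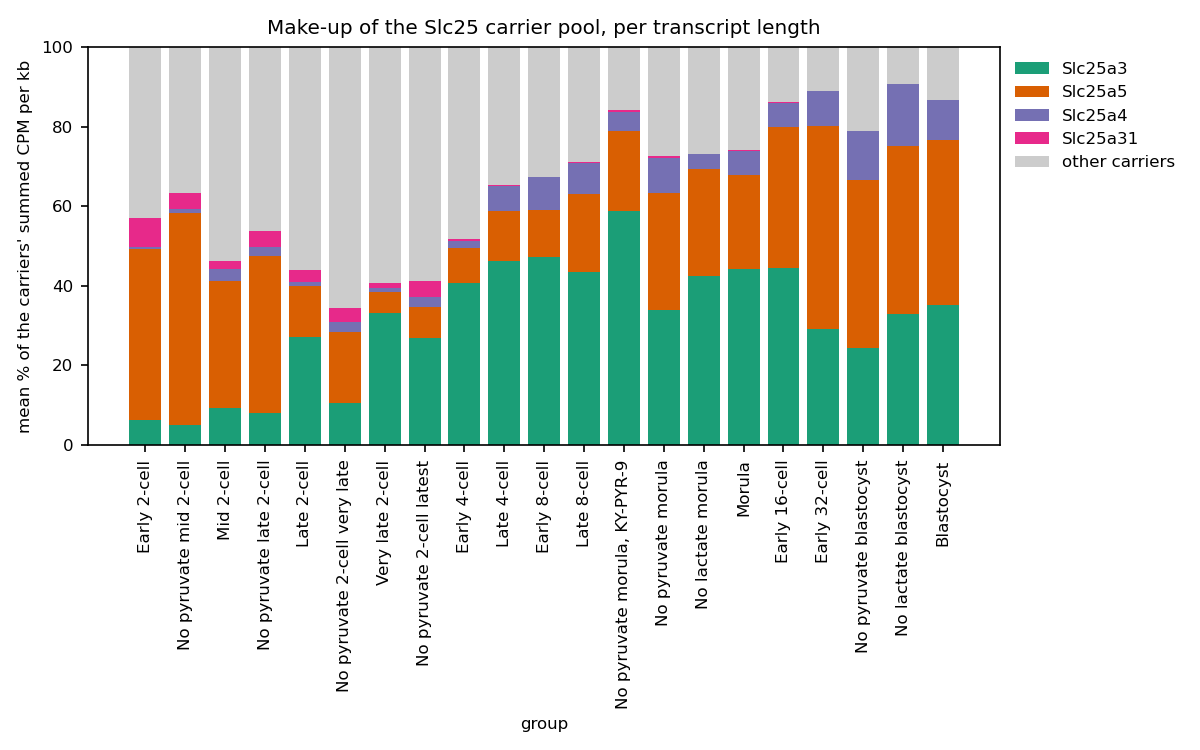
Mean share (%) of each carrier in the members' summed CPM per kb, for all 21 groups in order of age, with embryos grown without pyruvate or lactate left of the standard group of that age. In standard medium, Slc25a5 is the largest share in early and mid 2-cell embryos, Slc25a3 from late 2-cell to early 16-cell embryos, and Slc25a5 in 32-cell embryos and blastocysts. Without pyruvate, Slc25a5 is the largest share in 2-cell embryos at 42, 48 and 52 h, and Slc25a3 at 55 h.

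Among the ADP, ATP and phosphate carriers, Slc25a3 (chr10:91116574-91124059, minus strand) was lowest in early 2-cell embryos (29.6 ± 5.37 CPM) and highest in blastocysts (2015 ± 257 CPM). Slc25a4 (chr8:46206797-46211284, minus strand), the ADP/ATP carrier known from heart and muscle, was lowest in early 2-cell embryos (3.78 ± 0.550 CPM) and highest in blastocysts (739 ± 24.1 CPM). Slc25a5 (chrX:36795651-36798807, plus strand), the ADP/ATP carrier of dividing cells, was lowest in very late 2-cell embryos (74.7 ± 15.2 CPM) and highest in blastocysts (2080.0 ± 717 CPM), and because it has many processed pseudogenes its counts are uncertain. Slc25a31 (chr3:40708855-40726096, plus strand), the ADP/ATP carrier known from male germ cells in mouse, was lowest in blastocysts (1.46 ± 0.359 CPM) and highest in late 2-cell embryos (56.9 ± 7.29 CPM). Among the 3 ADP/ATP carriers per kb it made up 14.13 ± 0.5995% at early 2-cell, 18.3 ± 3.15% at late 2-cell and 0.638 ± 0.311% at early 8-cell. The other members of the role group exchange ATP-Mg for phosphate. Slc25a23 was lowest in blastocysts (1.15 ± 0.413 CPM) and highest in very late 2-cell embryos (14.9 ± 3.46 CPM). Slc25a24 was lowest in early 4-cell embryos (0.278 ± 0.312 CPM) and highest in blastocysts (8.23 ± 1.93 CPM). Slc25a25 was lowest in early 2-cell embryos (0.902 ± 0.303 CPM) and highest in very late 2-cell embryos (93.2 ± 3.18 CPM). Slc25a41 (chr17:57032773-57041654, minus strand), whose gene neighbours Slc25a23, was lowest in early 2-cell embryos (0.0423 ± 0.0368 CPM) and highest in late 4-cell embryos (31.6 ± 6.59 CPM). The set therefore held genes with opposite courses: 4 of the 8 peaked in blastocysts, and Slc25a25 and Slc25a41 were near 1 CPM or below there.

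Among the carboxylate carriers, Slc25a1 (chr16:17925223-17928219, minus strand), which exports citrate, was a low-abundance gene in standard medium, lowest in early 8-cell embryos (0.589 ± 0.558 CPM) and highest in blastocysts (5.09 ± 2.35 CPM). Slc25a10, the dicarboxylate carrier, was lowest in early 2-cell embryos (0.369 ± 0.132 CPM) and highest in blastocysts (61.0 ± 18.4 CPM). Slc25a21, the oxodicarboxylate carrier, was lowest in early 2-cell embryos (0.305 ± 0.277 CPM) and highest in morulae (5.16 ± 2.73 CPM). The relatives of uncoupling proteins declined from 2-cell levels. Slc25a14 was lowest in early 16-cell embryos (6.21 ± 1.41 CPM) and highest in mid 2-cell embryos (49.4 ± 2.31 CPM), and Slc25a30 was lowest in blastocysts (0.762 ± 0.291 CPM) and highest in late 2-cell embryos (16.0 ± 1.70 CPM). Slc25a27 reached at most 2.42 CPM in any library.

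Among the amino acid carriers, Slc25a15 (chr8:22375551-22398597, minus strand), the ornithine carrier, was lowest in blastocysts (4.38 ± 1.26 CPM) and highest in early 2-cell embryos (108 ± 8.93 CPM). Slc25a2, its close relative, reached at most 1.20 CPM in any library. The glutamate carriers differed: Slc25a18 was lowest in early 2-cell embryos (0.0249 ± 0.0430 CPM) and highest in early 8-cell embryos (1.01 ± 1.10 CPM), and Slc25a22 was lowest in early 2-cell embryos (1.25 ± 0.216 CPM) and highest in late 8-cell embryos (48.4 ± 26.8 CPM). Slc25a29, a carrier of basic amino acids, was lowest in early 4-cell embryos (at 0) and highest in late 2-cell embryos (0.577 ± 0.424 CPM). Slc25a38, which supplies glycine for heme synthesis, was lowest in blastocysts (4.98 ± 1.63 CPM) and highest in early 4-cell embryos (164 ± 28.6 CPM). Slc25a44 (chr3:88410498-88425139, minus strand), the carrier of branched-chain amino acids, was lowest in blastocysts (11.9 ± 2.79 CPM) and highest in very late 2-cell embryos (434 ± 77.8 CPM). The carriers of small sulphur and methyl compounds did not share a course. Slc25a26, which imports S-adenosylmethionine, was lowest in very late 2-cell embryos (3.43 ± 1.38 CPM) and highest in early 2-cell embryos (12.04 ± 2.26 CPM). Slc25a39 (chr11:102402985-102407946, minus strand), a glutathione carrier, was lowest in early 2-cell embryos (11.5 ± 2.02 CPM) and highest in blastocysts (683 ± 258 CPM). Slc25a40, its relative with the same known substrate, was lowest in early 8-cell embryos (3.22 ± 0.853 CPM) and highest in late 2-cell embryos (21.4 ± 2.604 CPM). Slc25a48, which is linked to choline transport, was lowest in morulae (0.0366 ± 0.0432 CPM) and highest in mid 2-cell embryos (22.6 ± 1.92 CPM).

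Of the 10 carriers of cofactors, nucleotides and iron, each but Slc25a37 had a lower mean in blastocysts than in early 4-cell embryos. Slc25a36 (chr9:97074961-97111157, minus strand), a pyrimidine nucleotide carrier, was lowest in early 2-cell embryos (4.05 ± 0.537 CPM) and highest in early 8-cell embryos (342 ± 44.7 CPM). Slc25a33 (chr4:149744036-149774277, minus strand), its relative, was lowest in early 2-cell embryos (1.72 ± 0.343 CPM) and highest in early 4-cell embryos (17.7 ± 4.81 CPM). Slc25a32, which carries folate and flavin cofactors, was lowest in blastocysts (5.39 ± 1.09 CPM) and highest in early 4-cell embryos (156 ± 29.7 CPM). The carriers linked to coenzyme A were Slc25a16 (chr10:62920633-62946498, plus strand) and Slc25a42. Slc25a16 was lowest in blastocysts (4.60 ± 1.04 CPM) and highest in very late 2-cell embryos (93.5 ± 7.54 CPM). Slc25a42 was lowest in early 2-cell embryos (0.0952 ± 0.0830 CPM) and highest in early 4-cell embryos (32.1 ± 7.501 CPM). The NAD carrier Slc25a51 was lowest in early 32-cell embryos (15.7 ± 2.38 CPM) and highest in very late 2-cell embryos (103 ± 6.51 CPM). The peroxisomal Slc25a17 was lowest in mid 2-cell embryos (16.9 ± 2.47 CPM) and highest in late 4-cell embryos (88.7 ± 8.51 CPM). Of the iron carriers, Slc25a28 was lowest in early 2-cell embryos (0.226 ± 0.107 CPM) and highest in early 4-cell embryos (73.9 ± 9.25 CPM) and Slc25a37 was lowest in early 2-cell embryos (0.0200 ± 0.0347 CPM) and highest in late 8-cell embryos (0.976 ± 0.871 CPM).

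Members with no role given here were mostly low. Slc25a35 was lowest in late 4-cell embryos (0.146 ± 0.130 CPM) and highest in late 2-cell embryos (4.81 ± 0.564 CPM). Slc25a43 was lowest in early 2-cell embryos (0.463 ± 0.355 CPM) and highest in very late 2-cell embryos (8.84 ± 1.31 CPM). Slc25a46 was lowest in early 2-cell embryos (7.31 ± 1.69 CPM) and highest in blastocysts (32.3 ± 6.68 CPM). Slc25a53 was lowest in blastocysts (0.491 ± 0.105 CPM) and highest in early 4-cell embryos (6.18 ± 3.79 CPM). The remaining members stayed below 2 CPM on average: Slc25a45 was lowest in early 4-cell embryos (at 0) and highest in very late 2-cell embryos (0.513 ± 0.751 CPM), and Slc25a47 was lowest in blastocysts (0.00767 ± 0.0153 CPM) and highest in very late 2-cell embryos (1.69 ± 1.25 CPM). The highest library value was 0.570 CPM for Slc25a34 and 0.509 CPM for Slc25a54. Over all 39 members above the filter, peaks in standard medium fell mostly in 2 windows: 20 peaked at late 2-cell, very late 2-cell or early 4-cell (5, 8 and 7), 8 in blastocysts, and 0 in early 16-cell or early 32-cell embryos. Peaks of all genes were not counted, so this course is not shown to be particular to the carriers.

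**Figure D2:**
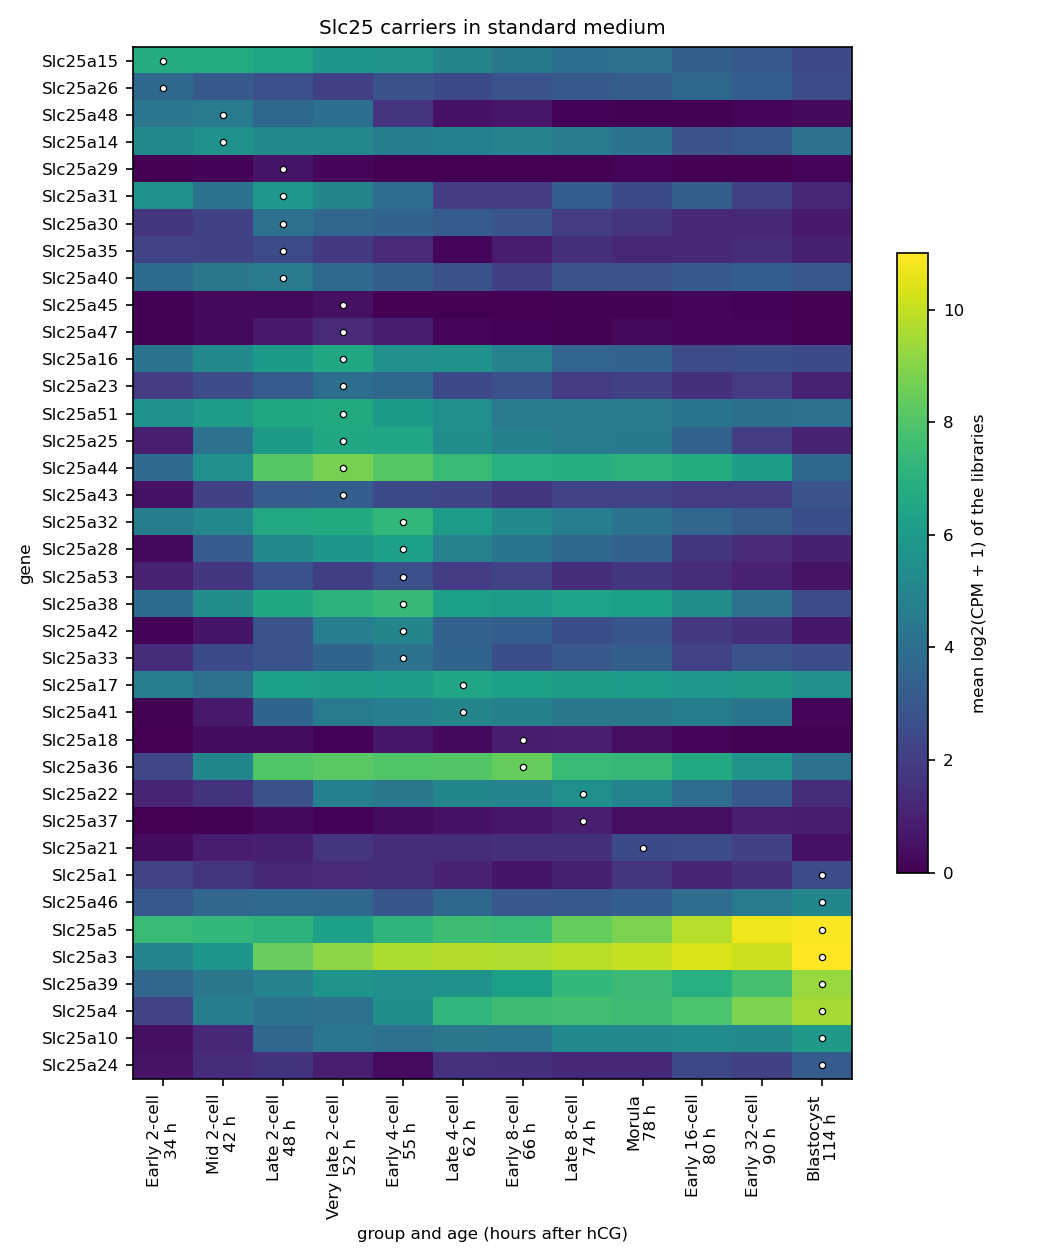
Heat map of the mean log2(CPM + 1) of the members described by name (vertical axis, ordered by the stage of their peak) in the 12 standard groups (horizontal axis, by age in hours after hCG). White dots mark each gene's peak group. Peaks gather between late 2-cell and early 4-cell embryos and in blastocysts.

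Between late and early 2-cell embryos, the time when the mouse embryo's own genome is switched on, most carriers rose. Of the 37 members tested, 25 rose and 3 fell, beside 57.7% and 13.7% of all genes tested. The members' median log2 change was 1.43 and that of all genes 0.85. With median-ratio scaling, 12 were higher and 11 lower, and with quantile scaling 13 and 10; 12 rises and 3 falls held in both. By role, 6 of 8 ADP, ATP and phosphate carriers rose, as did 9 of 10 carriers of cofactors, nucleotides and iron, of which 3 and 4 rises held in both scalings; the remaining 2 and 1 carriers did not pass. Slc25a36 had 259, 265 and 254 CPM in late 2-cell libraries, against 3.55, 4.62 and 3.98 CPM in early 2-cell libraries (log2 change 5.69 ± 0.22, adjusted p = 9.0e-25). All late libraries lay far above all early ones. Slc25a25 had 53.3, 58.8 and 79.1 CPM in late libraries and 1.24, 0.803 and 0.661 CPM in early libraries (log2 change 5.08 ± 0.24, adjusted p = 3.8e-22). Slc25a28 averaged 33.7 ± 3.91 CPM at late 2-cell and 0.226 ± 0.107 CPM at early 2-cell (log2 change 4.82 ± 0.19, adjusted p = 2.6e-24). Slc25a44 averaged 279 ± 59.6 CPM at late 2-cell and 12.7 ± 2.18 CPM at early 2-cell (log2 change 4.34 ± 0.25, adjusted p = 4.0e-19). None of the 4 overlapped between stages, and each rise held in both other scalings. The log2 change was 2.61 with median-ratio scaling and 3.52 with quantile scaling for Slc25a44.

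The 3 carriers that were lower at late than at early 2-cell were Slc25a26, Slc25a48 and Slc25a1. Slc25a26 had 5.48, 5.59 and 5.46 CPM in late libraries and 10.05, 14.5 and 11.6 CPM in early libraries (log2 change -0.99 ± 0.32, adjusted p = 0.0065), and its log2 change was -2.62 with median-ratio scaling and -2.74 with quantile scaling. Slc25a48 had 11.03, 10.8 and 13.5 CPM in late libraries and 20.7, 19.3 and 17.5 CPM in early libraries (log2 change -0.66 ± 0.24, adjusted p = 0.012), and its log2 change was -2.37 with median-ratio scaling and -2.37 with quantile scaling. The groups did not overlap for either gene. For Slc25a48 the call ended with a pseudocount of 0.1 in place of 1 (log2 change -0.70, adjusted p = 0.37). The Slc25a1 change (-1.01 ± 0.46, adjusted p = 0.049) lost significance in 5 of 6 fits that each left out 1 library of these groups (log2 change -0.72 to -1.04, adjusted p = 0.075 to 0.22), every one but that without late 2-cell library 3, and with a pseudocount of 0.1 (-1.50, adjusted p = 0.14). Slc25a31 and Slc25a5 did not pass between these stages (adjusted p = 0.66 and 0.26).

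Between early 8-cell and late 2-cell embryos the ADP/ATP carriers Slc25a4 and Slc25a31 moved in opposite directions. Per kb, Slc25a5 was the largest ADP/ATP carrier at both stages (57.9 ± 6.36% of them at early 8-cell, 75.6 ± 2.77% at late 2-cell). Of 37 members, 5 rose and 14 fell, beside 24.5% and 47.9% of all genes tested. The members' median log2 change was -0.48 and that of all genes -0.46. With median-ratio scaling 8 were higher and 14 lower, and with quantile scaling 11 and 11; 5 rises and 11 falls held in both. Slc25a4 had 198, 183 and 186 CPM in early 8-cell libraries and 14.1, 17.4 and 20.1 CPM in late 2-cell libraries (log2 change 3.40 ± 0.21, adjusted p = 7.2e-18). Slc25a31 had 4.51, 2.07 and 2.92 CPM in early 8-cell libraries and 63.7, 57.8 and 49.2 CPM in late 2-cell libraries (log2 change -3.83 ± 0.39, adjusted p = 1.6e-11). The stages did not overlap for either carrier, and both calls held in both scalings. Other rises were in Slc25a22 (29.5 ± 6.99 against 5.69 ± 0.979 CPM, log2 change 2.17 ± 0.39, adjusted p = 4.9e-06), Slc25a39 (75.6 ± 6.44 against 29.0 ± 6.16 CPM, log2 change 1.37 ± 0.29, adjusted p = 7.6e-05) and Slc25a3 (835 ± 19.4 against 350.5 ± 46.4 CPM, log2 change 1.26 ± 0.16, adjusted p = 3.0e-09), with early 8-cell values given before late 2-cell values. The glutathione carriers therefore moved apart, since Slc25a40 fell, averaging 3.22 ± 0.853 CPM at early 8-cell and 21.4 ± 2.604 CPM at late 2-cell (log2 change -2.42 ± 0.26, adjusted p = 1.1e-10). Slc25a48 averaged 0.661 ± 0.585 CPM at early 8-cell and 11.8 ± 1.47 CPM at late 2-cell (log2 change -3.01 ± 0.24, adjusted p = 1.3e-14). The NAD carrier Slc25a51 averaged 22.7 ± 3.96 CPM at early 8-cell and 96.2 ± 13.1 CPM at late 2-cell (log2 change -2.04 ± 0.16, adjusted p = 2.9e-14). Of the 10 cofactor, nucleotide and iron carriers, 4 fell, 3 of them in both scalings, and 6 did not pass.

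Between blastocysts and early 8-cell embryos, 10 of 37 members rose and 20 fell, beside 17.1% and 44% of all genes tested, with a members' median log2 change of -0.73 against -0.36 for all genes. With median-ratio scaling 17 were higher and 16 lower, and with quantile scaling 13 and 16; 10 rises and 16 falls held in both. Slc25a5 had 2125, 2854, 2219 and 1119.7 CPM in blastocyst libraries and 135, 177 and 208 CPM in early 8-cell libraries (log2 change 3.52 ± 0.24, adjusted p = 1.1e-16). Slc25a39 had 863, 828.9, 737 and 304 CPM in blastocyst libraries and 68.7, 81.4 and 76.7 CPM in early 8-cell libraries (log2 change 3.05 ± 0.28, adjusted p = 6.3e-13). All blastocyst libraries were above all early 8-cell libraries for both genes, although blastocyst library 4 had the lowest value of its group for each. Slc25a46 averaged 32.3 ± 6.68 CPM in blastocysts and 9.30 ± 6.77 CPM at early 8-cell (log2 change 2.04 ± 0.41, adjusted p = 2.9e-05), and Slc25a4 averaged 739 ± 24.1 CPM in blastocysts and 189 ± 8.10 CPM at early 8-cell (log2 change 1.96 ± 0.20, adjusted p = 1.0e-11). With median-ratio and quantile scaling the log2 changes were 3.23 and 2.88 for Slc25a46 and 3.24 and 1.98 for Slc25a4. Of the 10 cofactor, nucleotide and iron carriers, 8 fell, 6 of them in both scalings, and 2 did not pass. Slc25a41 had 0.152, 0.153, 0.211 and 0.121 CPM in blastocyst libraries and 31.5, 25.2 and 23.0 CPM in early 8-cell libraries (log2 change -4.56 ± 0.20, adjusted p = 1.2e-22). Slc25a36 had 12.5, 17.5, 12.5 and 25.2 CPM in blastocyst libraries and 291, 361 and 374 CPM in early 8-cell libraries (log2 change -4.31 ± 0.21, adjusted p = 2.1e-21). Neither gene overlapped between the stages. Slc25a25 (1.10 ± 0.149 CPM in blastocysts, 26.7 ± 5.41 CPM at early 8-cell, log2 change -3.71 ± 0.22, adjusted p = 2.5e-18) and Slc25a38 (4.98 ± 1.63 CPM in blastocysts, 68.1 ± 11.3 CPM at early 8-cell, log2 change -3.56 ± 0.27, adjusted p = 4.1e-15) fell as well.

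Part of this came in the last interval, between early 32-cell embryos and blastocysts. Of 37 members, 7 rose and 15 fell in blastocysts, beside 12.6% and 29.1% of all genes, and the members' median log2 change was -0.33 against -0.14. With median-ratio scaling 11 were higher and 8 lower, and with quantile scaling 9 and 10; 7 rises and 8 falls held in both. Slc25a41 had 21.0, 20.4, 16.7 and 15.2 CPM in the 32-cell libraries, against the blastocyst values given above (log2 change -4.05 ± 0.19, adjusted p = 1.9e-21), so that most of its fall lay in this interval. Slc25a44 averaged 11.9 ± 2.79 CPM in blastocysts and 70.4 ± 6.86 CPM in 32-cell embryos (log2 change -2.48 ± 0.22, adjusted p = 9.9e-13). Slc25a36 averaged 16.9 ± 6.02 CPM in blastocysts and 51.5 ± 4.02 CPM in 32-cell embryos (log2 change -1.60 ± 0.19, adjusted p = 3.5e-09). Slc25a38 averaged 4.98 ± 1.63 CPM in blastocysts and 16.3 ± 3.01 CPM in 32-cell embryos (log2 change -1.56 ± 0.25, adjusted p = 1.7e-06). Rises were led by Slc25a39 (683 ± 258 against 221 ± 50.3 CPM, log2 change 1.54 ± 0.25, adjusted p = 2.9e-06), Slc25a14 (16.8 ± 0.955 against 7.37 ± 1.76 CPM, log2 change 1.11 ± 0.18, adjusted p = 1.4e-06), Slc25a3 (2015 ± 257 against 1156 ± 102 CPM, log2 change 0.80 ± 0.14, adjusted p = 4.6e-06) and Slc25a4 (739 ± 24.1 against 452 ± 25.6 CPM, log2 change 0.71 ± 0.18, adjusted p = 0.0013), with blastocysts before 32-cell embryos. Slc25a5 did not pass in this interval (adjusted p = 0.52). With median-ratio and quantile scaling the log2 changes were -1.01 and -1.08 for Slc25a36, 1.73 and 1.46 for Slc25a14, 1.42 and 0.66 for Slc25a3 and 1.33 and 0.63 for Slc25a4.

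Without pyruvate, several of the carriers that rise between early and late 2-cell in standard medium were lower at 42 h. Of 38 members tested against mid 2-cell embryos of the same age, 2 rose and 14 fell, beside 5.58% and 31.2% of all genes tested. The members' median log2 change was -0.48 and that of all genes -0.26. With median-ratio scaling 5 were higher and 9 lower, and with quantile scaling 4 and 8; 2 rises and 8 falls held in both. Of the 10 cofactor, nucleotide and iron carriers, 7 fell, 3 of them in both scalings. Slc25a36 had 4.90, 3.76, 5.95 and 5.07 CPM without pyruvate and 28.6, 33.3, 28.1 and 39.2 CPM in standard medium (log2 change -2.49 ± 0.20, adjusted p = 1.7e-12). No library without pyruvate reached the lowest standard library, and the early 2-cell libraries had held 3.55 to 4.62 CPM. Slc25a25 averaged 1.48 ± 0.795 CPM without pyruvate and 16.1 ± 1.22 CPM in standard medium (log2 change -2.85 ± 0.19, adjusted p = 1.3e-14), Slc25a44 10.6 ± 2.76 and 44.9 ± 7.15 CPM (log2 change -2.01 ± 0.23, adjusted p = 3.2e-09), and Slc25a38 11.2 ± 3.33 and 42.4 ± 4.49 CPM (log2 change -1.87 ± 0.17, adjusted p = 3.5e-11). The 2 that rose were ADP/ATP carriers. Slc25a31 had 36.2, 35.8, 23.7 and 30.1 CPM without pyruvate and 18.2, 18.1, 19.4 and 15.3 CPM in standard medium (log2 change 0.78 ± 0.22, adjusted p = 0.0046), and all 4 libraries without pyruvate were above all 4 standard ones. Slc25a5 had 223, 274, 201 and 234 CPM without pyruvate and 176, 147, 154 and 152 CPM in standard medium (log2 change 0.56 ± 0.19, adjusted p = 0.018), a call lost when library 2 without pyruvate was left out (log2 change 0.48, adjusted p = 0.073). With median-ratio and quantile scaling the log2 changes were -1.27 and -1.24 for Slc25a38, 1.42 and 1.30 for Slc25a31 and 1.21 and 0.60 for Slc25a5. The 4 oocyte and maternal markers summed to 6369 to 9280 CPM without pyruvate and 5097 to 6087 CPM in standard medium. By gene, 0 of these markers rose, 1 fell and 3 did not pass. Their part in these differences was not tested.

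At 48 h, 5 of 38 members rose and 15 fell without pyruvate, beside 22.6% and 34.3% of all genes tested, with median log2 changes of -0.24 (members) and -0.14 (all genes). With median-ratio scaling 8 were higher and 13 lower, and with quantile scaling 8 and 14; 5 rises and 13 falls held in both. Slc25a36 had 60.6, 21.8, 25.9, 34.1 and 30.3 CPM without pyruvate and 259, 265 and 254 CPM in standard medium (log2 change -2.96 ± 0.21, adjusted p = 1.4e-13). Slc25a44 had 63.8, 31.5, 33.2, 34.4 and 38.3 CPM without pyruvate and 244, 246 and 348 CPM in standard medium (log2 change -2.79 ± 0.23, adjusted p = 4.0e-12). Slc25a3 had 84.9, 51.4, 56.8, 64.7 and 72.7 CPM without pyruvate and 304, 397 and 351 CPM in standard medium (log2 change -2.40 ± 0.17, adjusted p = 9.3e-14). For these 3 carriers every library without pyruvate was below every standard library. Slc25a41 averaged 0.936 ± 0.560 CPM without pyruvate and 10.5 ± 0.896 CPM in standard medium (log2 change -2.62 ± 0.39, adjusted p = 4.6e-07), and Slc25a10 averaged 1.48 ± 0.854 and 11.7 ± 2.71 CPM (log2 change -2.40 ± 0.31, adjusted p = 4.0e-08). Rises were led by Slc25a5 (276 ± 36.5 CPM without pyruvate, 138 ± 15.1 CPM in standard medium, log2 change 0.99 ± 0.20, adjusted p = 5.1e-05), Slc25a48 (24.3 ± 4.92 CPM without pyruvate, 11.8 ± 1.47 CPM in standard medium, log2 change 0.97 ± 0.31, adjusted p = 0.0081) and Slc25a14 (53.2 ± 5.72 CPM without pyruvate, 35.1 ± 3.23 CPM in standard medium, log2 change 0.58 ± 0.17, adjusted p = 0.004). Slc25a15 had 128, 121, 158, 124 and 101 CPM without pyruvate and 90.1, 79.0 and 98.1 CPM in standard medium (log2 change 0.49 ± 0.16, adjusted p = 0.0097), and leaving out late 2-cell library 2 ended this call (log2 change 0.41, adjusted p = 0.066). Slc25a1 had 6.21, 5.57, 6.28, 3.98 and 3.51 CPM without pyruvate and 0.573, 1.21 and 2.75 CPM in standard medium (log2 change 1.35 ± 0.46, adjusted p = 0.012), a call lost without late 2-cell library 1 (log2 change 1.06, adjusted p = 0.088). With median-ratio and quantile scaling the log2 changes were 0.98 and 1.05 for Slc25a14 and 0.90 and 0.87 for Slc25a15. The maternal markers summed to 5146 to 6434 CPM without pyruvate and 1527 to 1647 CPM in standard medium. The sums of 4 markers of the 2-cell stage (Zscan4d, Zscan4c, Zscan4f, Tcstv3) were 1530 to 2402 CPM and 560 to 627 CPM. By gene, 3 of the 4 maternal markers rose and 1 fell, and all 4 markers of the 2-cell stage rose, each in both scalings. Their part was not tested.

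At 52 h, 8 of 38 members rose and 15 fell without pyruvate, beside 31.9% and 31.3% of all genes tested, with median log2 changes of 0.18 (members) and 0.08 (all genes). With median-ratio scaling 11 were higher and 13 lower, and with quantile scaling 13 and 16; 8 rises and 13 falls held in both. Slc25a42 had 0.876, 2.09, 2.50 and 0.192 CPM without pyruvate and 25.4, 22.9 and 26.6 CPM in standard medium (log2 change -3.55 ± 0.35, adjusted p = 1.4e-10). Slc25a44 had 75.7, 61.7, 63.0 and 71.2 CPM without pyruvate and 384, 524 and 395 CPM in standard medium (log2 change -2.65 ± 0.24, adjusted p = 3.4e-11). Both were lower in all 4 libraries without pyruvate than in all 3 standard libraries. Slc25a41 averaged 1.71 ± 1.66 CPM without pyruvate and 22.1 ± 4.62 CPM in standard medium (log2 change -3.29 ± 0.40, adjusted p = 1.5e-08), Slc25a10 2.07 ± 1.44 and 18.9 ± 2.73 CPM (log2 change -2.81 ± 0.33, adjusted p = 4.6e-09), and Slc25a3 88.7 ± 7.41 and 549 ± 75.3 CPM (log2 change -2.61 ± 0.17, adjusted p = 2.4e-14). Slc25a15, the ornithine carrier, had 126, 143, 135 and 138 CPM without pyruvate and 59.1, 52.9 and 55.6 CPM in standard medium (log2 change 1.26 ± 0.17, adjusted p = 8.2e-08). Every library without pyruvate was at more than the highest early 2-cell value of 118 CPM for this gene. Slc25a48 averaged 36.3 ± 4.57 CPM without pyruvate and 14.97 ± 0.772 CPM in standard medium (log2 change 1.22 ± 0.33, adjusted p = 0.0016), Slc25a40 23.7 ± 5.29 and 12.7 ± 3.85 CPM (log2 change 0.86 ± 0.22, adjusted p = 9.6e-04), and Slc25a5 131 ± 49.5 and 74.7 ± 15.2 CPM (log2 change 0.75 ± 0.20, adjusted p = 0.0018, or 0.86 and 1.20 with median-ratio and quantile scaling). Slc25a1 had 10.5, 4.53, 12.97 and 6.80 CPM without pyruvate and 3.41, 0.988 and 0.859 CPM in standard medium (log2 change 1.85 ± 0.48, adjusted p = 0.0011), with no overlap. The 4 maternal markers summed to 1865 to 2161 CPM without pyruvate and 505 to 613 CPM in standard medium. For the 4 markers of the 2-cell stage the sums were 1248 to 1825 CPM and 107 to 216 CPM. By gene, 3 maternal markers rose and 1 fell, and all 4 markers of the 2-cell stage rose, each in both scalings.

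At 55 h the embryos without pyruvate were still at the 2-cell stage by label and the standard embryos were early 4-cell embryos, so stage and medium cannot be told apart. Of 38 members, 9 rose and 12 fell, beside 37.7% and 19.5% of all genes tested, with median log2 changes of -0.15 (members) and 0.27 (all genes). With median-ratio scaling 7 were higher and 18 lower, and with quantile scaling 6 and 12; 6 rises and 10 falls held in both. Slc25a1 had 28.7, 8.74, 48.9 and 24.1 CPM without pyruvate and 4.80, 0.0692, 4.72 and 0.493 CPM in early 4-cell embryos (log2 change 3.19 ± 0.44, adjusted p = 2.0e-07). Slc25a31 had 38.2, 123, 88.1 and 90.8 CPM without pyruvate and 14.0, 14.1, 17.8 and 11.5 CPM in early 4-cell embryos (log2 change 2.39 ± 0.22, adjusted p = 4.2e-11). All 4 libraries without pyruvate lay above all 4 early 4-cell libraries for both genes, with a wide spread: library 2 was lowest for Slc25a1 and library 1 for Slc25a31. Per kb, Slc25a31 was 28.5 ± 7.16% of the ADP/ATP carriers without pyruvate and 4.67 ± 0.477% in early 4-cell embryos. Slc25a43 averaged 18.1 ± 10.3 CPM without pyruvate and 4.74 ± 1.49 CPM in early 4-cell embryos (log2 change 1.63 ± 0.26, adjusted p = 2.9e-06, or 1.31 and 1.07 with median-ratio and quantile scaling). Slc25a48 averaged 12.2 ± 7.66 and 2.32 ± 1.05 CPM (log2 change 1.78 ± 0.30, adjusted p = 6.2e-06, or 1.44 and 1.09 with those scalings), with overlapping libraries. Slc25a3 had 435, 418, 257 and 392 CPM without pyruvate and 737, 766, 819 and 862 CPM in early 4-cell embryos (log2 change -1.11 ± 0.16, adjusted p = 4.7e-07), without overlap. Slc25a10 averaged 7.87 ± 3.11 CPM without pyruvate and 16.4 ± 4.60 CPM in early 4-cell embryos (log2 change -1.03 ± 0.30, adjusted p = 0.0041). Slc25a41 (11.2 ± 8.42 and 26.0 ± 8.07 CPM, log2 change -1.40 ± 0.37, adjusted p = 0.0018) and Slc25a42 (14.5 ± 10.1 and 32.1 ± 7.501 CPM, log2 change -1.31 ± 0.32, adjusted p = 7.8e-04) fell with overlapping libraries. The maternal markers summed to 500 to 666 CPM without pyruvate and 152 to 192 CPM in early 4-cell embryos. For the 2-cell markers the sums were 412 to 591 CPM and 32.2 to 56.2 CPM. By gene, 3 maternal markers rose and 1 did not pass, and all 4 of the 2-cell markers rose, the rises in both scalings.

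**Figure D3:**
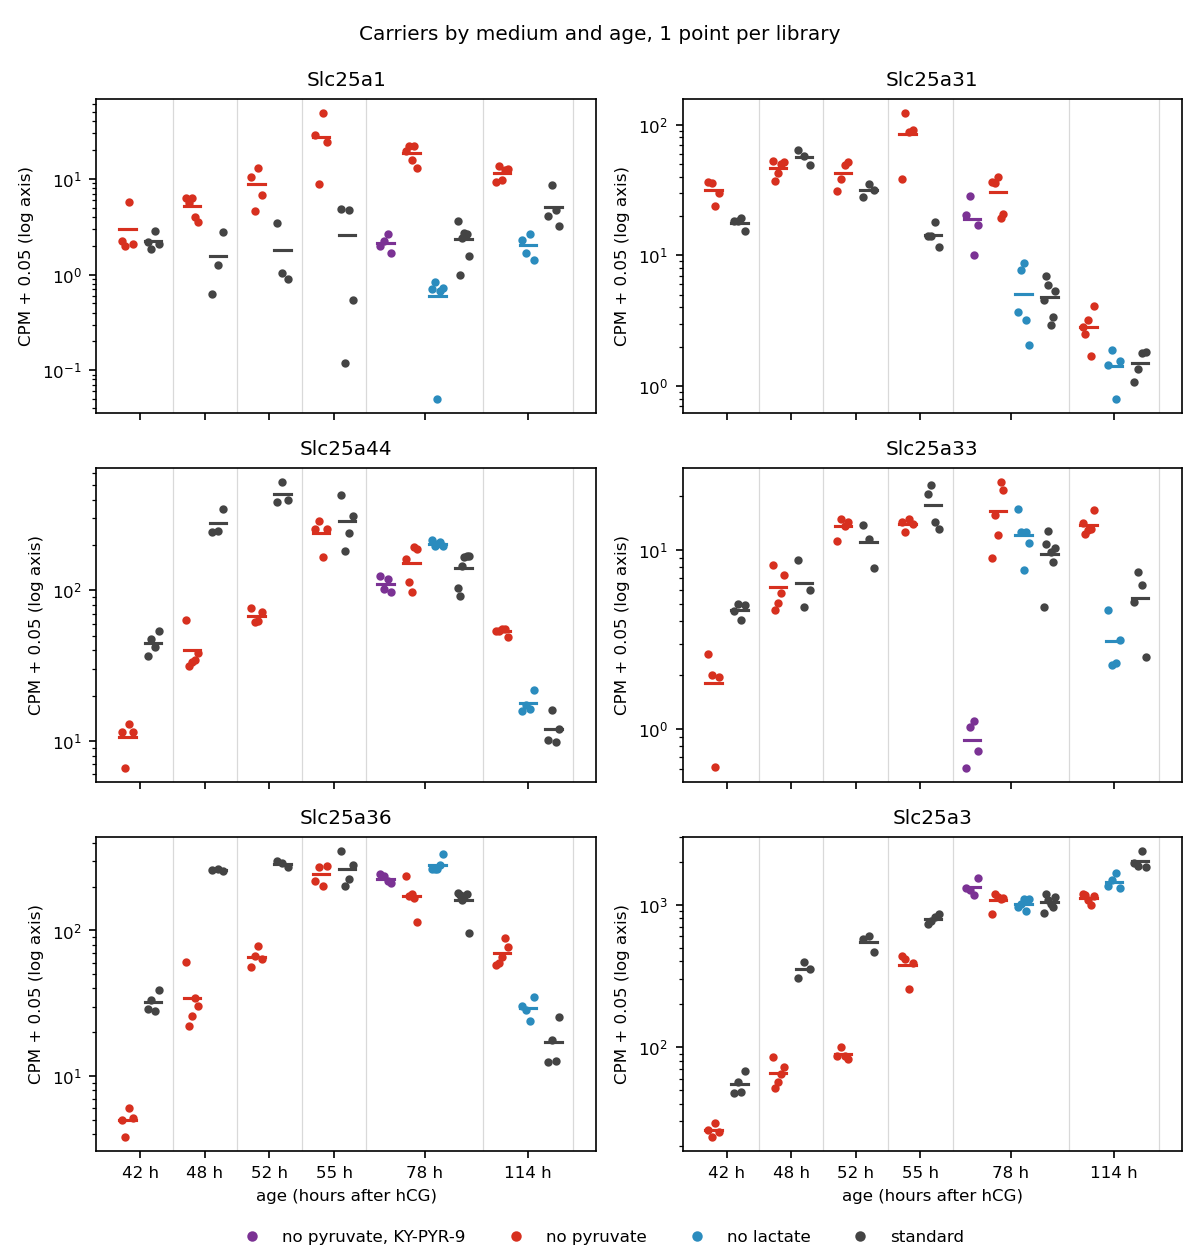
CPM + 0.05 (log axis) of 6 carriers in each library, by age in hours after hCG, with 1 point per library and the group mean as a bar; colours give the medium, from inhibitor without pyruvate through no pyruvate and no lactate to standard. Slc25a1 without pyruvate stays above standard from 48 h on, while Slc25a36 and Slc25a3 without pyruvate lie below standard at 42 to 52 h.

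In morulae without pyruvate, the carriers that changed were higher. Of 35 members tested against standard morulae, 18 rose and 17 did not pass, and of all genes tested 32.8% rose and 6.62% fell. The members' median log2 change was 0.65 and that of all genes 0.28. With median-ratio scaling 11 were higher and 1 lower, and with quantile scaling 13 and 2; 11 rises held in both. They included Slc25a1, Slc25a31, Slc25a4, Slc25a14, Slc25a30, Slc25a29, Slc25a16, Slc25a42, Slc25a51 and Slc25a35. By role, 7 of 10 cofactor, nucleotide and iron carriers rose, 3 of 8 ADP, ATP and phosphate carriers, 3 of 5 carboxylate carriers and uncoupling-protein relatives, and 3 of 8 amino acid carriers; 4, 2, 3 and 1 of these rises held in both scalings.

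Slc25a1, the citrate carrier, had 19.3, 22.3, 15.9, 22.0 and 13.1 CPM in morulae without pyruvate and 0.950 (lowest), 2.50 (median) and 3.56 (highest) CPM in the 6 standard morulae (log2 change 2.598 ± 0.22, adjusted p = 1.1e-08). Every library without pyruvate was well above the highest standard one, and no standard group of any age averaged more than the 5.09 CPM of blastocysts. Slc25a31 had 36.1, 35.9, 39.5, 19.2 and 20.5 CPM without pyruvate and 2.87 (lowest), 4.90 (median) and 6.88 (highest) CPM in standard medium (log2 change 2.42 ± 0.31, adjusted p = 2.7e-06), again without overlap. Per kb it was 1.79 ± 0.782% of the ADP/ATP carriers without pyruvate and 0.483 ± 0.174% in standard morulae. Slc25a42 had 18.0, 17.8, 19.4, 14.5 and 9.30 CPM without pyruvate and 6.14 (lowest), 6.57 (median) and 7.16 (highest) CPM in standard medium (log2 change 1.11 ± 0.19, adjusted p = 1.0e-04, or 0.81 and 0.68 with median-ratio and quantile scaling), without overlap. Slc25a4 had 362, 388, 375, 377 and 300.1 CPM without pyruvate and 144 (lowest), 186 (median) and 241 (highest) CPM in standard medium (log2 change 0.93 ± 0.13, adjusted p = 1.2e-05), with no overlap. Slc25a3 did not pass (adjusted p = 0.79). Without standard morula libraries 1 and 2 together, 16 members were higher and 1 lower. Libraries 4 and 5 without pyruvate were lower than libraries 1 to 3 for Slc25a31 and for Slc25a51, at 29.4 CPM each against 57.6 to 61.8 CPM. Transcripts encoded by the mitochondrial genome were 0.235 to 2.09% of counts without pyruvate and 1.37 to 8.27% in standard morulae. All 4 markers of the 2-cell stage rose (median log2 change 3.21, 3 in both scalings), with a sum of 2.45 to 202 CPM without pyruvate and 1.39 to 6.07 CPM in standard morulae. Trophectoderm markers summed to 325 to 1176 CPM and 185 to 400 CPM, but by gene 2 of the 5 rose and 2 fell, each in both scalings, and 1 did not pass. The part of these in the carriers' differences was not tested.

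Morulae without lactate differed from standard morulae in few carriers. Of 35 members, 4 rose and 2 fell, beside 8.37% and 3.42% of all genes tested, with median log2 changes of 0.03 (members) and 0.10 (all genes). With median-ratio scaling 1 was higher and 4 lower, and with quantile scaling 1 and 3; 1 rise and 2 falls held in both, and without standard morula libraries 1 and 2 together 3 were higher and 4 lower. Slc25a1 had 0.655, 0.785, 0, 0.628 and 0.673 CPM in morulae without lactate (log2 change -1.06 ± 0.22, adjusted p = 0.0031), below every standard morula library, where it had 0.950 to 3.57 CPM. Slc25a4 had 105, 117, 116, 98.6 and 130.1 CPM without lactate and 144 to 241 CPM in standard morulae (log2 change -0.73 ± 0.13, adjusted p = 0.0013). Slc25a36 had 264, 264, 265, 283 and 334 CPM without lactate and 95.4 (lowest), 175 (median) and 182 (highest) CPM in standard morulae (log2 change 0.83 ± 0.17, adjusted p = 0.0037). These 3 calls held in both scalings and their groups did not overlap. The rises of Slc25a22 (62.4 ± 5.80 CPM without lactate, 35.7 ± 18.4 CPM in standard medium, log2 change 1.03 ± 0.34, adjusted p = 0.049) and Slc25a16 (16.5 ± 2.64 CPM without lactate, 10.5 ± 2.38 CPM in standard medium, log2 change 0.62 ± 0.20, adjusted p = 0.04) were near the threshold. Each was lost in several fits that left out 1 library. That of Slc25a22 was lost without standard morula library 2 (log2 change 0.88, adjusted p = 0.10) or without any 1 of the 5 libraries without lactate (0.98 to 1.07, adjusted p = 0.072 to 0.11), and without standard libraries 1 and 2 together its log2 change was 0.39 (adjusted p = 0.093). Neither rise held in the other scalings. That of Slc25a16 was lost without standard morula library 1 or 2 or without library 1, 2, 3 or 4 of those without lactate (0.51 to 0.66, adjusted p = 0.058 to 0.10), and without both standard libraries 1 and 2 it had a log2 change of 0.42 (adjusted p = 0.11). Mitochondrially encoded transcripts were 5.42 to 8.33% of counts without lactate and 1.37 to 8.27% in standard morulae, and inner cell mass markers (Nanog, Sox2, Pou5f1) summed to 126 to 162 CPM and 191 to 280 CPM. Their part was not tested.

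Set directly against morulae without lactate, morulae without pyruvate had 16 of 35 members higher and 2 lower, beside 29.4% and 13% of all genes tested, with median log2 changes of 0.41 (members) and 0.19 (all genes). With median-ratio scaling 12 were higher and 6 lower, and with quantile scaling 13 and 6; 12 rises and 2 falls held in both. This comparison uses the same libraries without pyruvate as the one with standard morulae. Slc25a1 averaged 18.5 ± 3.98 CPM without pyruvate and 0.548 ± 0.312 CPM without lactate (log2 change 3.66 ± 0.23, adjusted p = 1.8e-10), so the citrate carrier was at opposite ends of the morula groups. Slc25a31 averaged 30.3 ± 9.61 CPM without pyruvate and 5.04 ± 2.96 CPM without lactate (log2 change 2.45 ± 0.32, adjusted p = 3.4e-06), and Slc25a4 360.3 ± 35.0 and 113 ± 12.1 CPM (log2 change 1.66 ± 0.14, adjusted p = 1.2e-08). Slc25a36 was lower without pyruvate, at 174 ± 44.3 CPM, than without lactate, at 282 ± 30.2 CPM (log2 change -0.73 ± 0.18, adjusted p = 0.0027). Slc25a22 averaged 32.7 ± 8.71 CPM without pyruvate and 62.4 ± 5.80 CPM without lactate (log2 change -0.95 ± 0.35, adjusted p = 0.034). Leaving out library 3, 4 or 5 without pyruvate, or library 1, 3, 4 or 5 without lactate, ended that call (log2 change -0.86 to -0.95, adjusted p = 0.054 to 0.075). Mitochondrially encoded transcripts were 0.235 to 2.09% of counts without pyruvate and 5.42 to 8.33% without lactate, and 3 of 4 markers of the 2-cell stage were higher without pyruvate, all 3 in both scalings. Their part was not tested.

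With the inhibitor KY-PYR-9, 28 of 35 members fell in morulae without pyruvate and 7 did not pass. Of all genes tested, 67.1% fell and 8.61% rose. The median log2 change was -1.19 for the members and -0.90 for all genes, a shift of all genes that was -0.13 with median-ratio scaling and -0.10 with quantile scaling. With median-ratio scaling 6 members were higher and 13 lower, and with quantile scaling 4 and 12; 10 falls held in both. They included Slc25a1, Slc25a14, Slc25a15, Slc25a38, Slc25a39, Slc25a16, Slc25a28, Slc25a33 and Slc25a42, and 5 of the 10 were carriers of cofactors, nucleotides or iron. The 100 most abundant genes took 34.6 to 37.6% of counts with the inhibitor and 21.1 to 23.8% without it, and their part was not tested.

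Slc25a33 had 0.554, 0.969, 1.05 and 0.706 CPM with the inhibitor and 8.98, 15.7, 12.02, 24.0 and 21.5 CPM without it (log2 change -3.19 ± 0.27, adjusted p = 2.5e-09). Slc25a16 had 2.71, 1.90, 2.27 and 2.09 CPM with the inhibitor and 25.7, 15.8, 12.8, 22.7 and 24.4 CPM without it (log2 change -2.67 ± 0.22, adjusted p = 1.2e-09). Slc25a1 had 1.95, 2.18, 2.62 and 1.62 CPM with the inhibitor (log2 change -2.64 ± 0.24, adjusted p = 6.2e-09), a level that overlaps that of standard morulae (0.950 to 3.57 CPM). For these 3 carriers no library with the inhibitor reached the lowest library without it. Their log2 changes were -2.46 with median-ratio scaling and -2.39 with quantile scaling (Slc25a33), -1.76 with median-ratio scaling and -1.69 with quantile scaling (Slc25a16) and -1.74 with median-ratio scaling and -1.65 with quantile scaling (Slc25a1). As shown among the promoter sequences, the windows of Slc25a1 and Slc25a33 hold CACGTG and that of Slc25a16 does not. Slc25a14 and Slc25a15, which also have a window with CACGTG, were among the falls that held in both scalings. Slc25a31, whose window holds it too, had 20.4, 28.4, 9.94 and 17.1 CPM with the inhibitor and 36.1, 35.9, 39.5, 19.2 and 20.5 CPM without it, and did not pass (log2 change -0.67 ± 0.34, adjusted p = 0.075). Slc25a36, with the same letters in its window, did not pass either and had 245, 235, 218 and 211 CPM with the inhibitor. Slc25a3 did not pass (adjusted p = 0.065) and its share of the pool per kb was 58.7 ± 4.21% with the inhibitor and 33.8 ± 2.53% without it. Trophectoderm markers summed to 91.7 to 130 CPM with the inhibitor and 325 to 1176 CPM without it. Mitochondrially encoded transcripts were 2.94 to 7.47% of counts with the inhibitor and 0.235 to 2.09% without it. The part of either was not tested.

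**Figure D4:**
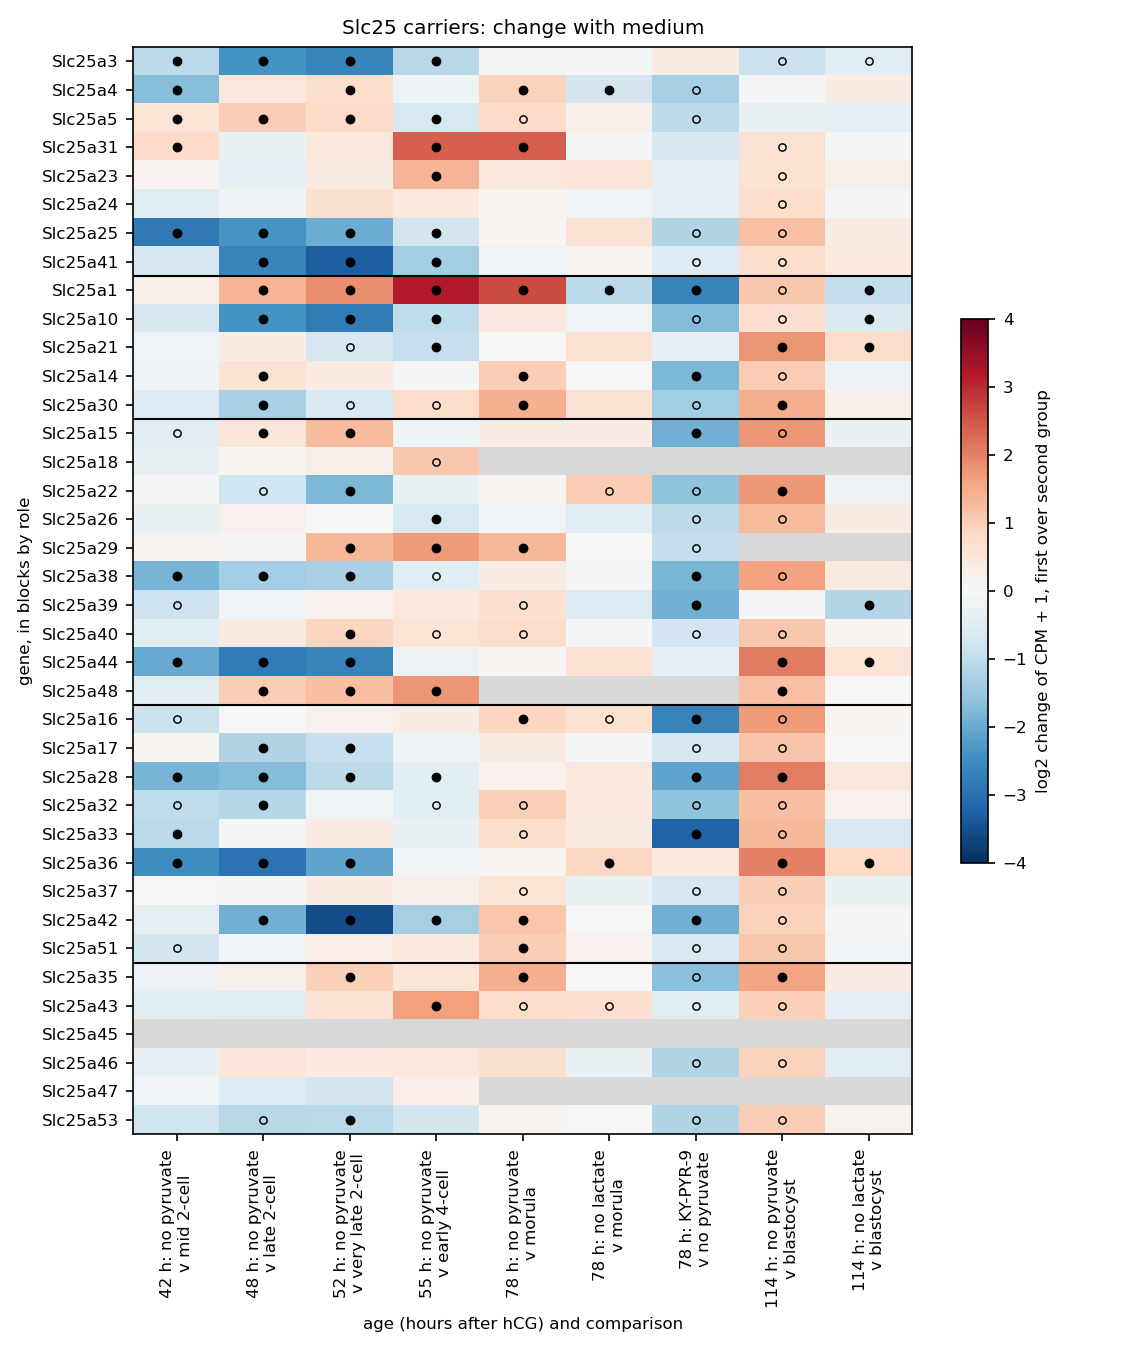
Log2 change of CPM + 1 for each member described by name (vertical axis, in blocks by role) in the 9 comparisons of media (horizontal axis, by age), the first-named group over the second. Filled circles mark calls that hold in both other scalings, open circles calls with CPM as deposited that do not, and grey cells members not tested. Slc25a1 is red in all 6 columns of no pyruvate over standard, with a filled circle in 4 of them, and blue with the inhibitor and without lactate.

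In blastocysts without pyruvate, 31 of 35 members rose and 1 fell, beside 80.8% and 7.14% of all genes tested. The median log2 change was 1.09 for the members and 1.15 for all genes, with median-ratio scaling they were 0.03 and 0.07, and with quantile scaling 0.19 and 0.14. The 100 most abundant genes took 23.2 to 25.2% of counts without pyruvate and 40.0 to 44.2% in standard blastocysts, and trophectoderm markers summed to 7450 to 8336 CPM and 12860 to 17590 CPM. Inner cell mass markers summed to 128 to 178 CPM without pyruvate and 62.1 to 96.5 CPM in standard blastocysts. Primitive endoderm markers (Gata4, Gata6, Sox17) summed to 103 to 126 CPM and 28.0 to 43.7 CPM. By gene, 1 of the 5 trophectoderm markers rose, 2 fell and 2 did not pass, with 1 rise and 1 fall in both scalings. All 3 inner cell mass and all 3 primitive endoderm markers rose, beside 80.8% of all genes, but only 1 of each list in both scalings. The part of these was not tested. With median-ratio scaling 11 members were higher and 9 lower, and with quantile scaling 10 and 2. The 9 rises that held in both included Slc25a44, Slc25a36, Slc25a28, Slc25a21, Slc25a22, Slc25a30, Slc25a35 and Slc25a48.

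Slc25a44 had 53.6, 53.7, 55.4, 55.1 and 48.8 CPM in blastocysts without pyruvate and 10.1, 15.9, 9.86 and 11.9 CPM in standard blastocysts (log2 change 2.09 ± 0.15, adjusted p = 3.3e-09). Slc25a36 had 57.9, 59.4, 66.2, 89.0 and 76.9 CPM without pyruvate and 12.5, 17.5, 12.5 and 25.2 CPM in standard medium (log2 change 2.02 ± 0.19, adjusted p = 2.7e-08). For both, every blastocyst without pyruvate lay above every standard one, and the log2 changes were 0.72 with median-ratio scaling and 0.78 with quantile scaling (Slc25a44) and 0.63 with median-ratio scaling and 0.79 with quantile scaling (Slc25a36). Slc25a44 had its lowest mean of the standard course in blastocysts, and without pyruvate Slc25a44 stood at 53.3 ± 2.67 CPM, against 70.4 CPM on average in 32-cell embryos. Slc25a15 averaged 17.0 ± 2.68 CPM without pyruvate and 4.38 ± 1.26 CPM in standard medium (log2 change 1.75 ± 0.19, adjusted p = 9.1e-08), a call that did not hold with quantile scaling (log2 change 0.34, adjusted p = 0.13; 0.48 with median-ratio scaling). Slc25a3 was the member that fell, with 1183, 1173, 1084, 998 and 1148 CPM without pyruvate and 1979, 1860.0, 2389 and 1834 CPM in standard blastocysts (log2 change -0.85 ± 0.14, adjusted p = 1.9e-05), without overlap. That call ended with quantile scaling (log2 change -0.19, adjusted p = 0.23), while median-ratio scaling gave -2.28. Slc25a1 had 9.25, 13.4, 9.58, 12.2 and 12.6 CPM without pyruvate and 4.00, 8.50, 4.65 and 3.19 CPM in standard medium (log2 change 1.08 ± 0.21, adjusted p = 1.1e-04), but its sign turned under the other scalings (-0.16 with median-ratio scaling and -0.29 with quantile scaling). The 3 largest members made up 78.9 ± 2.25% of the pool per kb without pyruvate and 86.8 ± 2.37% in standard blastocysts.

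Blastocysts without lactate had 3 members higher and 4 lower of 35, beside 14% and 9.29% of all genes tested, with median log2 changes of 0.03 (members) and 0.07 (all genes); 3 rises and 3 falls held in both scalings. Slc25a39 had 312, 247, 272 and 286 CPM without lactate and 863, 828.9, 737 and 304 CPM in standard blastocysts (log2 change -1.18 ± 0.24, adjusted p = 0.0023), where standard library 4 lay within the range without lactate. Slc25a1 had 2.27, 1.61, 2.59 and 1.38 CPM without lactate and 4.00, 8.50, 4.65 and 3.19 CPM in standard blastocysts (log2 change -0.99 ± 0.23, adjusted p = 0.0046), without overlap, as at the morula stage. Slc25a36 had 30.2, 28.4, 23.7 and 34.7 CPM without lactate (log2 change 0.80 ± 0.21, adjusted p = 0.0097), with 1 overlapping library. Slc25a21 averaged 1.40 ± 0.336 CPM without lactate and 0.4547 ± 0.319 CPM in standard blastocysts (log2 change 0.74 ± 0.17, adjusted p = 0.006). The calls of Slc25a44 (17.8 ± 2.65 CPM without lactate, 11.9 ± 2.79 CPM in standard blastocysts, log2 change 0.55 ± 0.16, adjusted p = 0.019), Slc25a10 (39.4 ± 4.14 and 61.0 ± 18.4 CPM, log2 change -0.57 ± 0.20, adjusted p = 0.047) and Slc25a3 (1455 ± 153 and 2015 ± 257 CPM, log2 change -0.47 ± 0.15, adjusted p = 0.031) were each lost in several fits that left out 1 library. That of Slc25a44 was lost without library 4 without lactate or standard library 1 or 3 (adjusted p = 0.056 to 0.061). That of Slc25a10 was lost without any 1 library but standard library 4 (adjusted p = 0.053 to 0.15), and that of Slc25a3 without library 1, 2 or 4 without lactate or standard library 3 (adjusted p = 0.068 to 0.11) and with quantile scaling (adjusted p = 0.21). Mitochondrially encoded transcripts were 9.05 to 13.4% of counts without lactate and 1.79 to 10.6% in standard blastocysts. Trophectoderm markers summed to 8236 to 10210 CPM without lactate and 12860 to 17590 CPM in standard blastocysts, and inner cell mass markers to 127 to 228 CPM and 62.1 to 96.5 CPM, neither overlapping. Their part was not tested.

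Between blastocysts without pyruvate and those without lactate, 30 of 35 members were higher and 2 lower without pyruvate, beside 80.7% and 8.05% of all genes tested, with median log2 changes of 1.21 (members) and 1.11 (all genes). With median-ratio scaling, where the medians were 0.02 and 0.07, 9 were higher and 5 lower, and with quantile scaling 9 and 2; 7 rises held in both. The libraries without pyruvate are those compared with standard blastocysts. Slc25a1 averaged 11.4 ± 1.87 CPM without pyruvate and 1.96 ± 0.562 CPM without lactate (log2 change 2.07 ± 0.21, adjusted p = 7.5e-08), and its change was 0.98 with median-ratio scaling and 0.84 with quantile scaling. Slc25a33 (13.8 ± 1.76 CPM without pyruvate, 3.04 ± 1.08 CPM without lactate, log2 change 1.90 ± 0.23, adjusted p = 3.9e-07) and Slc25a15 (17.0 ± 2.68 CPM without pyruvate, 3.54 ± 1.06 CPM without lactate, log2 change 2.00 ± 0.19, adjusted p = 3.1e-08) were higher as well. With median-ratio and quantile scaling the log2 changes were 0.75 and 0.60 for Slc25a33 and 0.82 and 0.69 for Slc25a15. Slc25a3 (1117 ± 76.9 CPM without pyruvate, 1455 ± 153 CPM without lactate, log2 change -0.38 ± 0.14, adjusted p = 0.018) and Slc25a4 (719.6 ± 64.8 CPM without pyruvate, 912 ± 78.7 CPM without lactate, log2 change -0.34 ± 0.13, adjusted p = 0.02) were the 2 lower members, and both turned positive with quantile scaling (0.04 and 0.05) and were -1.72 and -1.68 with median-ratio scaling. Leaving out library 3 without lactate ended the call of Slc25a3 (log2 change -0.31, adjusted p = 0.071). Leaving out library 4 without pyruvate or library 2 without lactate ended that of Slc25a4 (-0.30 and -0.31, adjusted p = 0.052 and 0.062). Mitochondrially encoded transcripts were 4.12 to 6.19% of counts without pyruvate and 9.05 to 13.4% without lactate, and primitive endoderm markers summed to 103 to 126 CPM and 25.8 to 52.0 CPM. Their part was not tested.

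Whether the step between morula and blastocyst differed by medium was tested directly, as the blastocyst minus morula change without pyruvate less that in standard medium. Of 36 members, 14 had a positive and 6 a negative difference, beside 44.1% and 11.3% of all genes tested, with medians of 0.40 (members) and 0.63 (all genes) on the log2 scale. With median-ratio scaling 5 were positive and 10 negative, and with quantile scaling 5 and 6. The 4 positive calls that held in both were Slc25a44, Slc25a28, Slc25a21 and Slc25a41, and the 4 negative ones were Slc25a31, Slc25a1, Slc25a29 and Slc25a4. For Slc25a44 the difference was 2.00 ± 0.31 (adjusted p = 1.7e-05): its mean was 53.3 CPM in blastocysts without pyruvate and 11.9 CPM in standard blastocysts, while the morula groups did not differ past the threshold. For Slc25a31 it was -1.81 ± 0.35 (adjusted p = 1.8e-04), and for Slc25a1 -1.51 ± 0.35 (adjusted p = 9.6e-04). Both carriers had been raised in morulae without pyruvate and were nearer to standard levels in blastocysts. Slc25a36 (1.92 ± 0.32, adjusted p = 4.2e-05), Slc25a28 (1.85 ± 0.35, adjusted p = 1.7e-04) and Slc25a22 (1.66 ± 0.52, adjusted p = 0.0096) had positive differences. Slc25a4 (-0.98 ± 0.22, adjusted p = 7.2e-04) and Slc25a5 (-1.06 ± 0.38, adjusted p = 0.021) had negative ones, and that of Slc25a5 was lost without standard blastocyst library 2 (-0.88, adjusted p = 0.058). With median-ratio and quantile scaling the differences were 1.05 and 0.81 for Slc25a44, 0.95 and 0.79 for Slc25a36, 1.27 and 1.23 for Slc25a28, 0.99 and 0.75 for Slc25a22, -2.39 and -2.32 for Slc25a31, -2.37 and -2.44 for Slc25a1, -1.99 and -0.62 for Slc25a4 and -2.07 and -0.48 for Slc25a5.

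**Figure D5:**
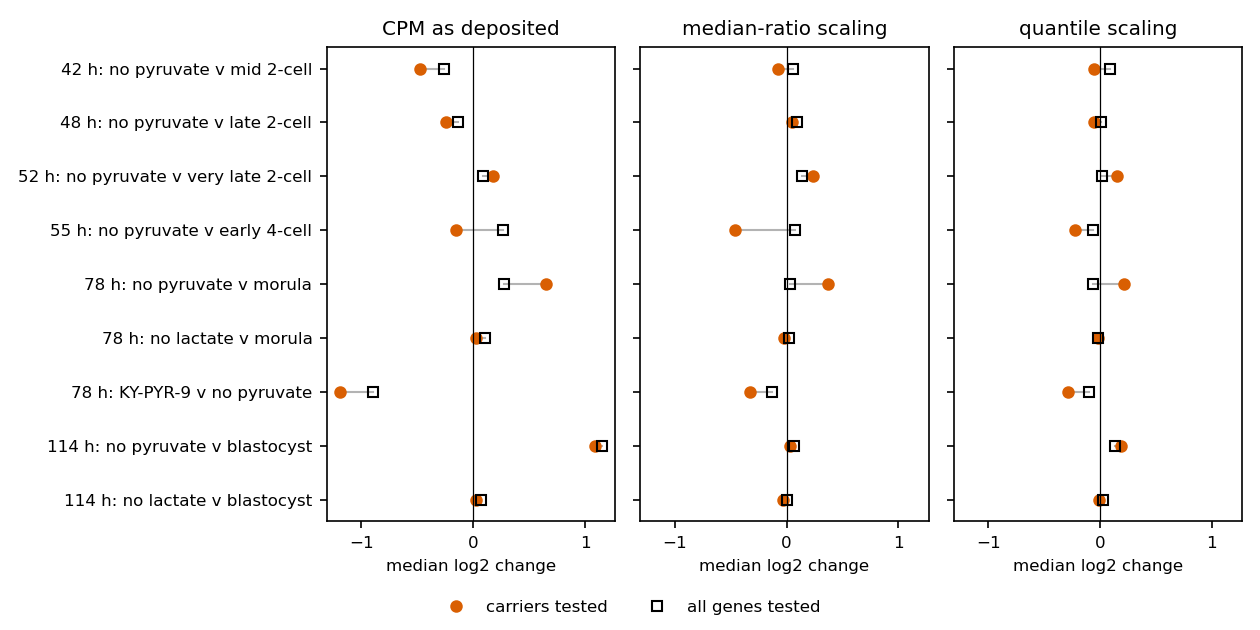
Median log2 change (horizontal axis) of the members tested (filled circles) and of all genes tested (open squares) in the 9 comparisons of media (vertical axis), under the 3 scalings. The shifts with the inhibitor (-1.19 and -0.90) and in blastocysts without pyruvate (1.09 and 1.15) shrink with either other scaling, and in morulae without pyruvate the members stay right of all genes in each panel.

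Genes that work with the carriers were read from lists of 16 components that import carriers into mitochondria, 3 porins of the outer membrane, 28 enzymes that make or use the carriers' substrates and 22 inner-membrane transporters outside the family. Of the import components, 13 rose and 1 fell at late against early 2-cell, beside 57.7% and 13.7% of all genes, and 11 rises and 1 fall held in both scalings. They were led by Tomm5 (363 ± 57.4 CPM at late 2-cell, 1.16 ± 0.798 CPM at early 2-cell, log2 change 7.45 ± 0.23, adjusted p = 4.9e-28) and Tomm20, the receptor of the outer-membrane import gate (453 ± 36.9 CPM at late 2-cell, 2.00 ± 0.133 CPM at early 2-cell, log2 change 7.24 ± 0.17, adjusted p = 1.7e-31). Without pyruvate 2 rose and 13 fell at 48 h, beside 22.6% and 34.3% of all genes, and the same counts were found at 52 h, beside 31.9% and 31.3%. At 55 h, 10 fell and 6 did not pass, beside 19.5% of all genes that fell. Each of these calls but 1 fall at 48 h held in both scalings. Tomm22, another import receptor, averaged 33.4 ± 11.9 CPM without pyruvate and 278 ± 29.4 CPM in standard medium at 48 h (log2 change -3.09 ± 0.23, adjusted p = 2.9e-13). In morulae without pyruvate 3 import components fell, 2 of them in both scalings, beside 6.62% of all genes, and 13 did not pass.

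Of the porins, 2 rose and 1 fell without pyruvate at 48 h, beside 22.6% and 34.3% of all genes, the rises in both scalings and the fall not. Vdac3 then averaged 185 ± 22.2 CPM without pyruvate and 44.2 ± 2.598 CPM in standard medium (log2 change 2.03 ± 0.15, adjusted p = 2.7e-13). All 3 porins fell at 55 h, in both scalings, beside 19.5% of all genes. Of the enzymes tested, 11 of 26 rose and 2 fell in morulae without pyruvate, beside 32.8% and 6.62% of all genes, and 8 and 2 of these calls held in both scalings. Arg2, the mitochondrial arginase, which makes ornithine, averaged 39.6 ± 5.29 CPM without pyruvate and 3.46 ± 1.31 CPM in standard morulae (log2 change 3.23 ± 0.25, adjusted p = 4.2e-09), and Fech, which inserts iron into heme, averaged 59.9 ± 11.3 and 19.5 ± 6.79 CPM (log2 change 1.63 ± 0.22, adjusted p = 5.2e-06). Acly and Cs, which use and make citrate, did not pass in these morulae: Acly averaged 78.8 ± 23.2 CPM without pyruvate and 68.7 ± 15.01 CPM in standard medium, and Cs 157 ± 40.0 and 124 ± 31.1 CPM. With the inhibitor 24 of 26 enzymes fell, beside 67.1% of all genes, and 9 of these falls held in both scalings. Fech then averaged 9.58 ± 1.97 CPM with the inhibitor and 59.9 ± 11.3 CPM without it (log2 change -2.53 ± 0.24, adjusted p = 1.2e-08, or -1.46 and -1.48 with median-ratio and quantile scaling). At 55 h without pyruvate Arg2 averaged 113 ± 35.2 CPM, against 8.68 ± 4.58 CPM in early 4-cell embryos (log2 change 3.64 ± 0.24, adjusted p = 9.2e-15).

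Of the 22 transporters outside the family, 13 of 19 tested rose at late against early 2-cell, beside 57.7% of all genes, 9 of 18 rose in morulae without pyruvate, beside 32.8%, and 14 of 18 fell with the inhibitor, beside 67.1%. The others did not pass, and 6, 5 and 7 of these calls held in both scalings. Mpc2, which with Mpc1 forms the pyruvate carrier, averaged 145 ± 18.1 CPM at late 2-cell and 2.48 ± 0.176 CPM at early 2-cell (log2 change 5.38 ± 0.18, adjusted p = 1.5e-26). It then averaged 32.6 ± 2.54 CPM in blastocysts and 619 ± 4.62 CPM at early 8-cell (log2 change -4.21 ± 0.17, adjusted p = 1.1e-23).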

How the data were processed

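Poly(A) RNA of whole mouse embryos was sequenced with Smart-seq2 (85 libraries, 21 groups, per the labels). The values used are CPM from the authors' deposited table, which carry a constant 0.0001. Alignment used STAR 2.6.1d to mm10, per the submitters' processing notes; the counting tool, annotation and strand handling are not given in the sources used here. Between 70.1 and 78.9% of values at or below 20 reads were within 0.1 of a whole read, so reads could not be recovered. A count model had been planned; instead limma 3.58.1 (R 4.3.3) with a mean trend was used on log2(CPM + 1), keeping genes that exceeded 1 CPM in 3 or more libraries of the fit, with Benjamini-Hochberg adjustment over all genes tested (threshold 0.05). Fold changes on this scale understate those of low genes. The fits gave 16 comparisons: the 12 standard groups, the 9 groups of 34 to 55 h, the 4 groups at 78 h, the 3 at 114 h, and the interaction. The 6 columns that match no sample were not used, 26 numbered features (0.0458 to 0.194% of counts) and 1 gene with a missing value were left out, and the fits were tested on simulated data. Replicate libraries differed by 3.21 to 198 times counting noise (138 pairs), so none was taken for a copy. Depths of 10.2 to 42.6 M counts were inferred from the smallest step between low values.

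Named are up to 4 called members per direction and comparison with the largest change and at least 10 CPM in the higher group, members that lead another comparison, and each member with its range; 1 member is in the counts but not reported here by name; further values were chosen after they were seen. Members, lists and role groups were chosen with earlier results of these data known. Positions are from GENCODE vM21 (GRCm38), and lengths are the median of a gene's protein-coding transcripts. Python 3.11.15, numpy 2.4.6, pandas 2.3.3 and matplotlib 3.10.9 were used. Alternatives were a pseudocount of 0.1, no filter, a filter over all libraries, only the groups compared, a replicate block, median-ratio and quantile scaling, and leaving out libraries.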

Additional observations from a re-analysis of the deposited data

Results flagged for a closer look

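Single libraries stood far from the rest of their group in 9 of the 121 sets of 4 to 10 libraries examined, where chance gives about 1 in 20. Slc25a1 was at 0.0 CPM in morula library 3 without lactate, whose other libraries held 0.628 to 0.785 CPM. Slc25a36 had 334.0 CPM in morula library 5 without lactate and 95.4 CPM in standard morula library 6. Slc25a44 had 63.8 CPM in 2-cell library 1 without pyruvate at 48 h and 48.8 CPM in blastocyst library 5 without pyruvate. Slc25a5 had 204 CPM in 2-cell library 3 without pyruvate at 52 h, and Slc25a10 had 3.23 CPM in 2-cell library 3 without pyruvate at 55 h. Slc25a4 had 490 CPM in early 32-cell library 4, and Slc25a15 had 6.26 CPM in standard blastocyst library 2.

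The blastocyst minus morula change was compared between embryos without pyruvate and those in standard medium (limma, adjusted p below 0.05). Of 36 carriers tested, 14 had a positive and 6 a negative difference, beside 44.1% and 11.3% of all genes tested. The 8 named here are the largest called differences, up to 4 in each direction. Those of Slc25a36, Slc25a22 and Slc25a5 did not hold in both scalings, and that of Slc25a5 was lost without standard blastocyst library 2. On the log2 scale the difference was 2.00 for Slc25a44, 1.92 for Slc25a36, 1.85 for Slc25a28 and 1.66 for Slc25a22. It was -1.81 for Slc25a31, -1.51 for Slc25a1, -1.06 for Slc25a5 and -0.98 for Slc25a4.

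For 3 carriers the change without pyruvate had opposite signs at different ages, and the difference between ages was not tested. Only calls whose groups did not overlap were read for this. How many of all genes do the same was not counted, so it is not shown to be particular to the carriers. Slc25a5 changed by 0.56, 0.99 and 0.75 at 42, 48 and 52 h and by -0.64 at 55 h (log2). Slc25a15 changed by -0.46 at 42 h and by 0.49 and 1.26 at 48 and 52 h. Its 42 h call ended without mid 2-cell library 4 (adjusted p = 0.063) and without library 1 or 2 without pyruvate (0.054 and 0.087), and the sign turned with median-ratio scaling (0.19, adjusted p = 0.34). Its 48 h call ended without late 2-cell library 2 (0.41, adjusted p = 0.066). Slc25a30 changed by -1.30 and -0.62 at 48 and 52 h and by 0.73 at 55 h, where the call did not hold in both scalings. Its 52 h call did not hold in both either, and ended without very late 2-cell library 1 (-0.54, adjusted p = 0.072). At 55 h the standard embryos are of a later stage.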

How the results depend on the processing

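Counts of carriers called stayed within 1.5 times of the reported ones under most alternatives. Exceptions by scaling were these. With the inhibitor, 16 were called with quantile scaling (4 higher, 12 lower), not 28. In blastocysts without pyruvate against standard, 20 were called with median-ratio scaling (11 higher, 9 lower) and 12 with quantile scaling (10 and 2), not 32. In blastocysts without pyruvate against those without lactate the counts were 14 (9 and 5) and 11 (9 and 2), not 32. In blastocysts without lactate against standard, 11 were called with median-ratio scaling and 4 when only the groups compared were fitted, not 7. For the difference between media in the blastocyst minus morula change, 11 were called with quantile scaling (5 and 6), not 20. Leaving out 1 library at a time gave 3 to 8 calls in morulae without lactate (3 without its library 2) and 4 to 8 in blastocysts without lactate (4 without standard library 3). Slc25a3 (0.0436) and Slc25a4 (0.0543) turned positive with quantile scaling between blastocysts without pyruvate and without lactate. Between blastocysts without pyruvate and standard ones Slc25a1 turned negative with median-ratio (-0.165) and quantile scaling (-0.294), and at 42 h without pyruvate Slc25a15 turned positive with median-ratio scaling (0.189). Of the other values recomputed for carriers called and named in a comparison, 1691 kept direction and call and 90 kept direction only. In each case the cause was not tested. Correlations of deviations between libraries of the same replicate number were low (-0.25 to 0.20). Such a library was still the best match in 3 of 4 pairs at 42 h and 2 of 3 at 48 h. The same held for 3 of 5 pairs of morulae without pyruvate and without lactate, and for 0 to 2 pairs in each other comparison. Because the labels do not give cultures, pairing by culture cannot be told from this. A fit with the replicate number as a block gave, in the order of the report's comparisons, 27, 19, 30, 21, 17, 20, 23, 21, 19, 5, 19, 30, 32, 5, 33 and 19 calls. In it Slc25a1 (late against early 2-cell), Slc25a22 and Slc25a16 (morulae without lactate) and Slc25a10 and Slc25a3 (blastocysts without lactate) lost their calls. Counting error limits what carriers near 1 CPM can show.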
